A study of Homo sapiens with 24 samples.

Results

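RGS16, a regulator that shuts off G-protein signals, and the G-protein-coupled receptors GPR3, GPR84, CCR2 and CXCR4 were followed in 2 acute myeloid leukaemia cell lines treated with the RAS inhibitor RMC-7977. All 5 symbols had a row in the table, which held 13033 genes. They had been picked by name after their response to the drug in these same libraries was known, so their differences from DMSO are given as a description, without a test. The working name of the set calls the receptors dependent on ERK, the kinase at the end of the RAS pathway. ERK itself was not measured, so whether the genes depend on it was not tested. RGS16, GPR3 and GPR84 were lower after the drug in both lines and at both times, CCR2 was lower in Molm-14 alone, and CXCR4 was higher in both lines.

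Molm-14 is labelled FLT3-ITD (an internal duplication that activates the FLT3 receptor) and OCI-AML3, written OCIAML-3 in the labels, is labelled NRAS Q61L. Each line was given DMSO, the solvent, or 25 nM RMC-7977, which binds RAS in its active, GTP-loaded state, for 2 or 24 h, and poly(A) RNA was sequenced. The labels list 24 libraries in 6 groups of 4, all in the same batch. Of these, 23 were used: for OCI-AML3 at 24 h the library numbered 3 was not analysed, so n = 3 there. Each line has a single DMSO group with no time stated, so the 2 h and 24 h differences share their controls. Whether replicate libraries stem from independent cultures is not stated, so p-values measure only the spread between libraries, which may be technical.

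G-protein-coupled receptors sit in the cell membrane and, when active, load GTP onto the alpha subunit of a heterotrimeric G protein. The signal ends when the alpha subunit hydrolyses GTP, a step that RGS proteins accelerate, and receptor kinases and arrestins silence the receptor itself. Gs-coupled receptors raise cyclic AMP and Gi-coupled receptors lower it. In myeloid cells, receptors of this class steer migration, and the chemokine receptor CXCR4 is known for holding leukaemia cells in the bone marrow.

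The DNA just upstream of 3 of the genes is shown because these genes stand for the 3 behaviours that the values below describe: a low level at 2 h that was partly regained in Molm-14 (RGS16), a drop to a few reads (GPR3) and a higher level (CXCR4). The sequences are from RefSeq (GRCh38.p14), 5′ to 3′ on the gene's strand. They end at the last base before the start of transcription, taking the more downstream of the RefSeq and GENCODE starts. Capitals mark matches, on either strand, to any of the motifs searched: the AP-1 site TGANTCA, the cyclic AMP response element TGACGTCA, the ETS core CCGGAA, the EGR site GCGNGGGCG, the CCAAT box CCAAT, the CArG box and the kappa-B site. RGS16 is shown over chr1:182604390-182604639 (minus strand), GPR3 over chr1:27392372-27392643 (plus strand) and CXCR4, at the most upstream of its 3 RefSeq starts, over chr2:136118150-136118399 (minus strand).
RGS16: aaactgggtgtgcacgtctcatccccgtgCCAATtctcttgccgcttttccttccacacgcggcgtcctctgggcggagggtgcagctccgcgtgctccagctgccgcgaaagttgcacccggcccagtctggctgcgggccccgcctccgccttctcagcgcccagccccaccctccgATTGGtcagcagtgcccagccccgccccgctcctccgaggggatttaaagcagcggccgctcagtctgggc
GPR3: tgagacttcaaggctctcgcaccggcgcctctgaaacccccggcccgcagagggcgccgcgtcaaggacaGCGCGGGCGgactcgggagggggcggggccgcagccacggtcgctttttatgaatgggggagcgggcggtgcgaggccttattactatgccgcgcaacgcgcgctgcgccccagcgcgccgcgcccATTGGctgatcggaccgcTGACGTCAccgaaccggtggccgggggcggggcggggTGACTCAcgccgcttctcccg
CXCR4: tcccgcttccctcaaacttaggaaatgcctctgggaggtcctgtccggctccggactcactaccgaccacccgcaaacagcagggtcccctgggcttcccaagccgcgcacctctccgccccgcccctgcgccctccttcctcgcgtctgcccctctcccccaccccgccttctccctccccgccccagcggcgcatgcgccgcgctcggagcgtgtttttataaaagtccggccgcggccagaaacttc

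The GPR3 stretch held an EGR match, a CCAAT match, a cyclic AMP response element whose last base lay 29 bases before the RefSeq start, and an AP-1 match beginning 1 base after that start and before the GENCODE start. The RGS16 stretch held only CCAAT matches, and the CXCR4 stretch held none of the motifs. The CCR2 window, not printed because GENCODE places exon there, held an AP-1 match and a CCAAT match. GPR84 had no entry in the promoter table. At the other CXCR4 starts, which are not printed, the windows held a CArG box and CCAAT matches at 1 and an EGR match at the other. Matches were sought in windows from 250 bases before to 50 after each RefSeq start. Among all 35116 such windows, 7.71% held the AP-1 site, 1.85% the cyclic AMP response element, 9.43% the EGR site, 34.6% the CCAAT box, 17.2% the ETS core, 1.29% the CArG box and 11.3% the kappa-B site. A match describes the letters and is not evidence of binding.

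The drug's reach was checked on 2 feedback genes of ERK. DUSP6, a phosphatase of ERK, stood at 6.27% of its DMSO level after 2 h and 96.6% after 24 h in Molm-14, and at 1.70% and 1.43% in OCI-AML3. SPRY4, an inhibitor of RAS signalling, stood at 1.44% and 11.1% in Molm-14 and at 1.70% and 3.82% in OCI-AML3. The libraries held the equivalent of 15.4 to 22.4 M reads each. Of the myeloid markers, 7 of 7 had values, and their summed level ran from 849 to 920.5 CPM (read counts scaled to library size) in Molm-14 in DMSO, from 1102 to 1188 CPM at 24 h, from 1728 to 1904 CPM in OCI-AML3 in DMSO and from 5524 to 5814 CPM at 24 h. T-cell markers were represented by 1 of 5 genes, TRAC, at 11.5 to 15 CPM in Molm-14 in DMSO, 3.34 to 4.64 CPM at 2 h and at most 0.0925 CPM in OCI-AML3. B-cell markers were represented by PAX5 alone, 1 of 4, at 17.9 to 22.1 CPM in Molm-14 in DMSO and at most 0.669 CPM in OCI-AML3. In Molm-14 PAX5 ran from 11.5 to 13.3 CPM at 2 h and from 8.17 to 8.60 CPM at 24 h. The epithelial marker KRT18, 1 of 4, ran from 6.54 to 9.70 CPM over the Molm-14 groups and reached 0.119 CPM in OCI-AML3. The stromal marker COL1A2, 1 of 4, reached 0.216 CPM in Molm-14 and ran from 1.03 to 2.27 CPM in OCI-AML3 in DMSO and from 3.74 to 4.85 CPM at 24 h. Of 4 erythroid markers 0 had values. The part of these shifts in the results below was not tested.

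RGS16 (ENSG00000143333, chr1:182598623-182604408, minus strand, GRCh38) accelerates GTP hydrolysis by Gi and Gq alpha subunits. In Molm-14 it stood at 152, 156, 144 and 149 CPM in the 4 DMSO libraries, at 4.20, 4.49, 4.32 and 5.06 CPM after 2 h, and at 32.6, 32.8, 35.1 and 29.3 CPM after 24 h. All 2 h libraries lay far below all DMSO libraries, and the 24 h libraries lay between those groups without overlap. In OCI-AML3 the values were 18.8, 18.4, 18.0 and 17.3 CPM in DMSO, 5.63, 5.12, 5.23 and 5.31 CPM after 2 h, and 3.84, 3.95 and 4.26 CPM after 24 h. Here each later group lay below the one before it, with no overlap.

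On the log2 scale RGS16 differed from DMSO by -5.03 ± 0.07 (SE) at 2 h and -2.21 ± 0.07 at 24 h in Molm-14, and by -1.75 ± 0.07 and -2.15 ± 0.07 in OCI-AML3. The level left was 3.0% of DMSO at 2 h and 21.6% at 24 h in Molm-14, against 29.4% and 22.2% in OCI-AML3. The lines therefore stood far apart relative to their own controls at 2 h and close together at 24 h. In absolute terms the 2 h levels were near each other, 4.52 ± 0.381 CPM (SD, n = 4) in Molm-14 and 5.32 ± 0.217 CPM (n = 4) in OCI-AML3, from DMSO levels of 151 ± 5.12 and 18.1 ± 0.621 CPM. A lower level in such bulk RNA can come from fewer cells carrying the transcript or from less of it per cell, and these cannot be told apart.

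GPR3 (ENSG00000181773, chr1:27392644-27395814, plus strand) couples to Gs and raises cyclic AMP without a ligand. It was the least abundant of the genes. In Molm-14 it stood at 2.94, 3.06, 2.59 and 2.91 CPM in DMSO, at 0.501, 0.274, 0.216 and 0.287 CPM after 2 h, and at 0.312, 0.427, 0.190 and 0.190 CPM after 24 h. In OCI-AML3 it stood at 5.67, 6.25, 6.48 and 5.16 CPM in DMSO, at 0.111, 0.109, 0.103 and 0.271 CPM after 2 h, and at 0.111, 0.160 and 0.111 CPM after 24 h. Every treated library lay below every DMSO library of its line, and the 2 h and 24 h libraries overlapped in both lines.

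The treated levels of GPR3 rest on few reads. Molm-14 went from 204 reads summed over the DMSO libraries to 25 at 2 h and 21 at 24 h, and OCI-AML3 went from 478 to 11 and 7. Allowing for depth, GPR3 was 8.73-fold lower at 2 h in Molm-14 (exact 95% interval 5.75 to 13.8) and 10.2-fold lower at 24 h (6.50 to 16.9). In OCI-AML3 it was 40.1-fold lower at 2 h (22.2 to 80.8) and 46.5-fold lower at 24 h (22.4 to 116). These intervals cover counting error only. By these estimates the loss was deeper in OCI-AML3 at both times. The difference between the lines was not tested, and the intervals leave out the spread between libraries. The fitted log2 differences, which the authors' offset pulls toward 0, were -2.85 ± 0.25 and -3.0 ± 0.25 in Molm-14 and -4.61 ± 0.25 and -4.69 ± 0.27 in OCI-AML3.

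GPR84 (ENSG00000139572, chr12:54362445-54364487, minus strand) is a Gi-coupled receptor of myeloid cells that responds to medium-chain fatty acids. It lies within the span of antisense transcripts AC079313.1 and AC079313.2 but shares 0 exon bases with them. In Molm-14 it stood at 40.1, 39.5, 35.5 and 37.4 CPM in DMSO, at 12.8, 12.8, 12.1 and 12.6 CPM after 2 h, and at 6.73, 8.01, 7.22 and 7.27 CPM after 24 h. In OCI-AML3 it stood at 17.1, 15.2, 16.6 and 16.3 CPM in DMSO, at 1.17, 0.545, 0.770 and 0.704 CPM after 2 h, and at 0.279, 0.481 and 0.276 CPM after 24 h. In both lines DMSO, 2 h and 24 h formed a descending order without overlap.

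The log2 difference of GPR84 from DMSO was -1.59 ± 0.14 at 2 h and -2.37 ± 0.14 at 24 h in Molm-14, and -4.23 ± 0.14 and -5.22 ± 0.16 in OCI-AML3. By summed reads it was 3.03-fold lower at 2 h (2.82 to 3.27) and 5.23-fold lower at 24 h (4.77 to 5.74) in Molm-14. In OCI-AML3 it was 20.5-fold lower (15.8 to 27.0) and 46.9-fold lower (29.9 to 78.1), the last on 19 reads in 3 libraries. The smallest of these differences was that at 2 h in Molm-14, the line with the higher DMSO level.

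CCR2 (ENSG00000121807, chr3:46353734-46360928, plus strand) is the receptor for CCL2 and draws monocytes out of the marrow. In Molm-14 CCR2 stood at 23.9, 25.1, 26.9 and 24.9 CPM in DMSO, at 11.7, 12.4, 10.1 and 11.7 CPM after 2 h, and at 11.2, 10.7, 12.2 and 12.3 CPM after 24 h. In OCI-AML3 it stood at 34.5, 35.7, 34.6 and 38.5 CPM in DMSO, at 39.7, 41.7, 44.2 and 38.6 CPM after 2 h, and at 38.1, 39.3 and 38.3 CPM after 24 h. All treated Molm-14 libraries lay below DMSO. In OCI-AML3 the 2 h libraries lay just above the DMSO range, and the 24 h libraries overlapped with it.

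The log2 differences of CCR2 were -1.13 ± 0.07 at 2 h and -1.11 ± 0.07 at 24 h in Molm-14, which left 45.6% and 46.0% of the DMSO level. In OCI-AML3 they were 0.20 ± 0.07 and 0.11 ± 0.07, or 115% and 108% of DMSO. In the same OCI-AML3 libraries GPR3 and GPR84 stood at 2.12% to 4.89% of DMSO.

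CXCR4 (ENSG00000121966, chr2:136114349-136118165, minus strand) is the receptor for CXCL12. In Molm-14 it stood at 40.2, 37.1, 35.7 and 36.4 CPM in DMSO, at 46.4, 46.4, 49.2 and 50.5 CPM after 2 h, and at 100.04, 102, 112 and 105 CPM after 24 h. In OCI-AML3 it stood at 217, 210.4, 226 and 212 CPM in DMSO, at 276, 279, 265 and 258 CPM after 2 h, and at 426, 421 and 414 CPM after 24 h. In each line DMSO, 2 h and 24 h formed a rising order with no overlap.

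CXCR4 differed from DMSO by 0.37 ± 0.04 at 2 h and 1.49 ± 0.04 at 24 h in Molm-14, and by 0.32 ± 0.04 and 0.96 ± 0.05 in OCI-AML3. At 24 h it reached 281% of DMSO in Molm-14 and 194% in OCI-AML3. With libraries scaled to equal totals the OCI-AML3 difference at 24 h was 1.13 and with median-of-ratios scaling 1.03, past the size of a call, while the median of all genes moved from 0.01 to 0.18 with equal totals. The summed myeloid markers were also higher at 24 h in both lines, and their part in the CXCR4 values was not tested.

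**Figure D1:**
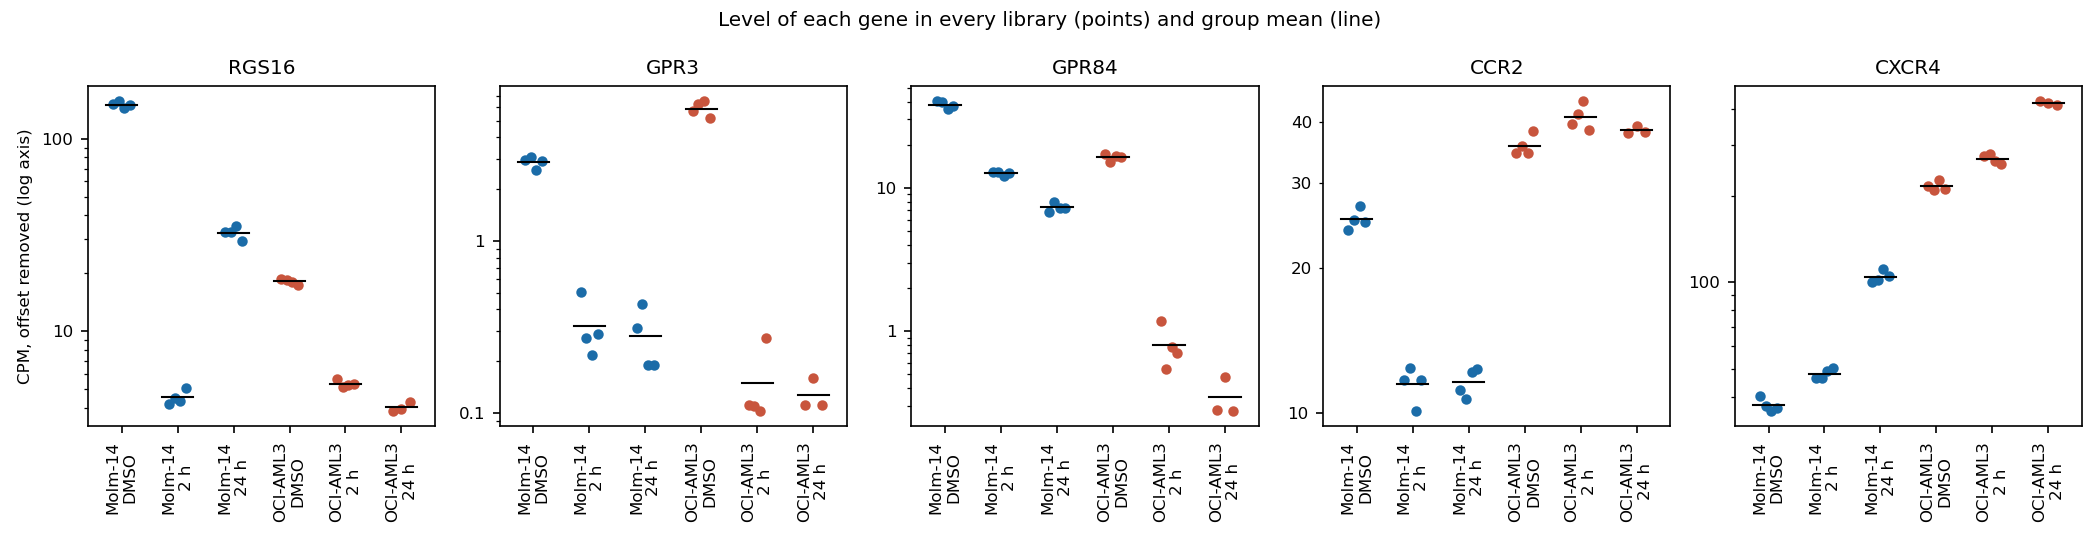
Level of each gene in CPM with the authors' offset removed (log axis, a separate scale per gene) in all 23 libraries, Molm-14 in blue and OCI-AML3 in red. Points are libraries and lines are group means; RGS16, GPR3 and GPR84 are lower with drug in both lines, CCR2 in Molm-14 only, and CXCR4 goes from 37.3 to 105 CPM in Molm-14 and from 216 to 420.4 CPM in OCI-AML3.

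A gene was called where its Benjamini-Hochberg adjusted p was below 0.05 and its log2 change at least 1. In Molm-14 at 2 h 4 of the 5 genes met that size and p, all lower, where 7.29% of all genes were called and 2.98% lower. At 24 h 4 met it lower and CXCR4 higher, where 17.9% of all genes were called, 6.57% lower and 11.4% higher. In OCI-AML3 3 met it at 2 h, all lower, where 6.58% of all genes were called and 3.35% lower, and 3 met it at 24 h, all lower, where 35.4% were called and 17.1% lower. Since these contrasts served to pick the genes, nothing is read from these counts.

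**Figure D2:**
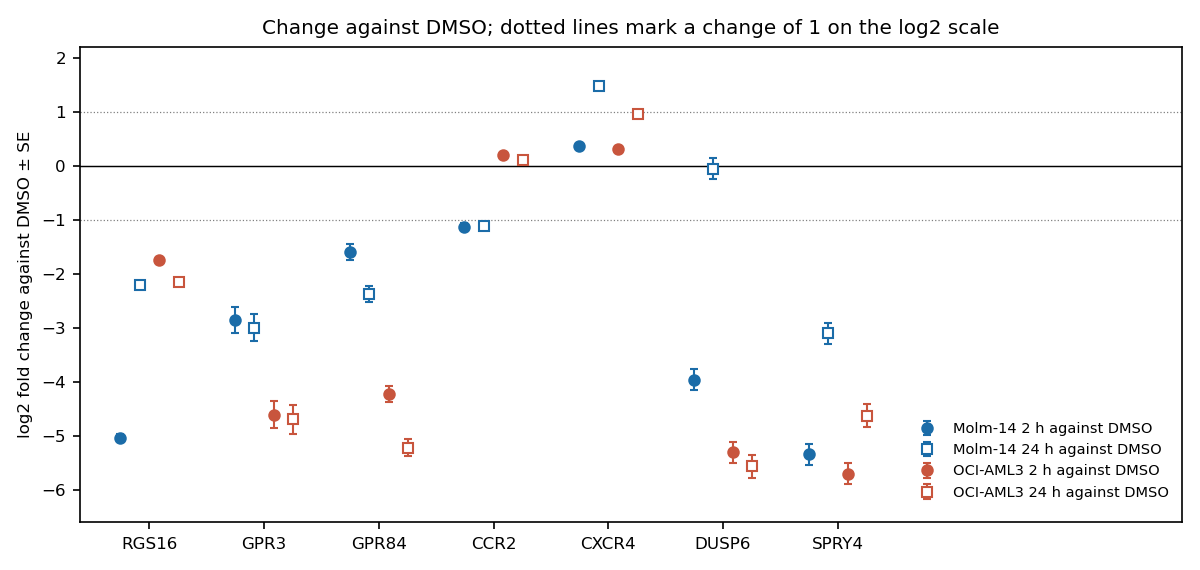
Log2 fold change against DMSO ± SE (n = 4 libraries per group, 3 for OCI-AML3 at 24 h) for the 5 genes and for DUSP6 and SPRY4, at 2 h (filled circles) and 24 h (open squares). RGS16 in Molm-14 moves from -5.03 to -2.21 between the times, while DUSP6 moves from -3.96 to -0.05.

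The difference in response between the lines, OCI-AML3 minus Molm-14, is a description as well. At 2 h it was 3.28 ± 0.10 on the log2 scale for RGS16, 1.32 ± 0.09 for CCR2, -0.05 ± 0.06 for CXCR4, -1.76 ± 0.35 for GPR3 and -2.64 ± 0.20 for GPR84. At 24 h it was 0.07 ± 0.10 for RGS16, 1.22 ± 0.10 for CCR2, -0.53 ± 0.06 for CXCR4, -1.69 ± 0.36 for GPR3 and -2.85 ± 0.21 for GPR84. By the size and p of a call, 2 genes were higher and 2 lower at 2 h, where 5.64% of all genes were called (2.12% higher, 3.52% lower). At 24 h 1 was higher and 2 lower, where 17.8% were called (8.09% higher, 9.75% lower), and again nothing is read from these counts. RGS16 was the gene whose gap between lines closed with time. For GPR3, GPR84 and CCR2 the gap at 24 h was close to that at 2 h, and for CXCR4 it opened only at 24 h.

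Comparing 24 h with 2 h of drug asks whether the early state held. The genes were picked on their response in these same libraries, so for them this contrast too is a description, with no test. By the size and p of a call 2 of the 5 were higher in Molm-14, where 10.6% of all genes were called (7.25% higher, 3.38% lower), and 0 in OCI-AML3, where 22.6% were (11.6% higher, 10.9% lower). Nothing is read from these counts. In Molm-14 RGS16 stood 2.82 ± 0.07 higher at 24 h on the log2 scale, 4 of 4 libraries at 24 h lying above all at 2 h. The feedback genes rose over the same interval, DUSP6 by 3.91 ± 0.20 (limma, adjusted p = 8.9e-17) and SPRY4 by 2.24 ± 0.19 (adjusted p = 1.1e-11). They had been chosen as a check of the drug, with earlier results of these data known. CXCR4 stood 1.12 ± 0.04 higher in Molm-14, again without overlap.

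In OCI-AML3 RGS16 differed between 2 and 24 h by -0.40 ± 0.07, CXCR4 by 0.64 ± 0.05 and GPR84 by -0.99 ± 0.16. With 1 CPM added before taking logs this GPR84 difference was -0.41. GPR84 differed by -0.78 ± 0.14 in Molm-14. The differences of GPR3 (-0.15 ± 0.25 in Molm-14 and -0.08 ± 0.27 in OCI-AML3) and CCR2 (0.01 ± 0.07 and -0.09 ± 0.07) were of the size of their errors, and their libraries at the 2 times overlapped in both lines. Whether the change from 2 to 24 h differed between the lines was not tested.

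The levels of the genes also differed between the lines before any drug. This contrast shares the DMSO libraries with those that picked the genes, so it too is a description, with no test. By the size and p of a call 2 of the 5 were higher and 2 lower in OCI-AML3. Of all genes 30.2% were called (17.9% higher, 12.2% lower), and nothing is read from these counts. CXCR4 was higher in OCI-AML3 by 2.53 ± 0.04 on the log2 scale, and RGS16 differed by -3.05 ± 0.07 and GPR84 by -1.22 ± 0.14. GPR3 was higher by 1.00 ± 0.25, at the size limit of a call. It fell below that limit when 1 CPM was added before taking logs (0.83) and with median-of-ratios scaling (0.94). The same held without Molm-14 DMSO replicate 3 (0.96), OCI-AML3 DMSO replicate 2 (0.97) or OCI-AML3 DMSO replicate 3 (0.96). CCR2 was at 0.51 ± 0.07, below the size limit. In each of these comparisons the DMSO libraries of the lines did not overlap.

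Set against each other per kilobase of GENCODE exon, the genes ranked differently in the 2 lines. In Molm-14 in DMSO, RGS16 led at 62.0 ± 2.11 CPM per kb (SD, n = 4), followed by GPR84 at 18.7 ± 1.02 and CXCR4 at 16.8 ± 0.884, whose ranges overlapped, then CCR2 at 6.75 ± 0.332 and GPR3 at 1.36 ± 0.0966. In OCI-AML3 in DMSO, CXCR4 led at 97.2 ± 3.26 CPM per kb, followed by CCR2 at 9.60 ± 0.497, then GPR84 at 7.98 ± 0.395 and RGS16 at 7.47 ± 0.256 with overlapping ranges, and GPR3 at 2.78 ± 0.280. After 24 h of drug CXCR4 led in both lines, at 47.1 ± 2.27 CPM per kb in Molm-14 and 189 ± 2.7 (n = 3) in OCI-AML3. RGS16 was second in Molm-14 at 13.4 ± 0.989, and CCR2 was second in OCI-AML3 at 10.3 ± 0.181.

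Across the 6 groups each gene had its own order of levels. RGS16 ran from Molm-14 in DMSO through Molm-14 at 24 h, OCI-AML3 in DMSO and OCI-AML3 at 2 h, in that order and without overlap, down to Molm-14 at 2 h and OCI-AML3 at 24 h, which overlapped. GPR84 ran from Molm-14 in DMSO through OCI-AML3 in DMSO, Molm-14 at 2 h, Molm-14 at 24 h and OCI-AML3 at 2 h to OCI-AML3 at 24 h, with no neighbours overlapping. CXCR4 had no overlapping neighbours either, and its lowest OCI-AML3 group lay above its highest Molm-14 group. For GPR3 only the DMSO groups stood clear. For CCR2 the OCI-AML3 groups stood together on top, and the treated Molm-14 groups overlapped at the bottom.

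The genes with the nearest profiles were found among 12018 genes reaching 5 CPM, by the root mean square distance between group-mean log2 CPM over the 6 groups, each gene centred on its own mean. For RGS16, whose own spread was 1.87, they were MYC (distance 0.73), WAKMAR2 (0.75) and TNFAIP3, an inhibitor of NF-kB signalling (0.76). For GPR3 (spread 1.83) they were MIR222HG (0.61), the AP-1 gene FOSL1 (0.78) and the cytokine gene TNF (0.88). For GPR84 (spread 2.32) they were the phosphatase gene DUSP2 (0.53), the early response gene IER3 (0.65) and PHLDA2 (0.74).

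For CCR2 (spread 0.78) the nearest were LYSMD2 (0.18), the chemokine receptor gene CCR1 (0.23) and PLEK, which encodes the kinase C substrate pleckstrin (0.24). For CXCR4 (spread 1.28) they were ANKRD13C-DT (0.11), SPATA20 (0.13) and the complement protease gene C1R (0.15). RGS16, GPR3 and GPR84 had neighbours at larger distances than CCR2 and CXCR4 did. Their own spreads were larger too, and the distance is not scaled to spread, so nothing is read from this. The groups share their control libraries, and the difference between the lines enters every distance, so these are descriptions.

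**Figure D3:**
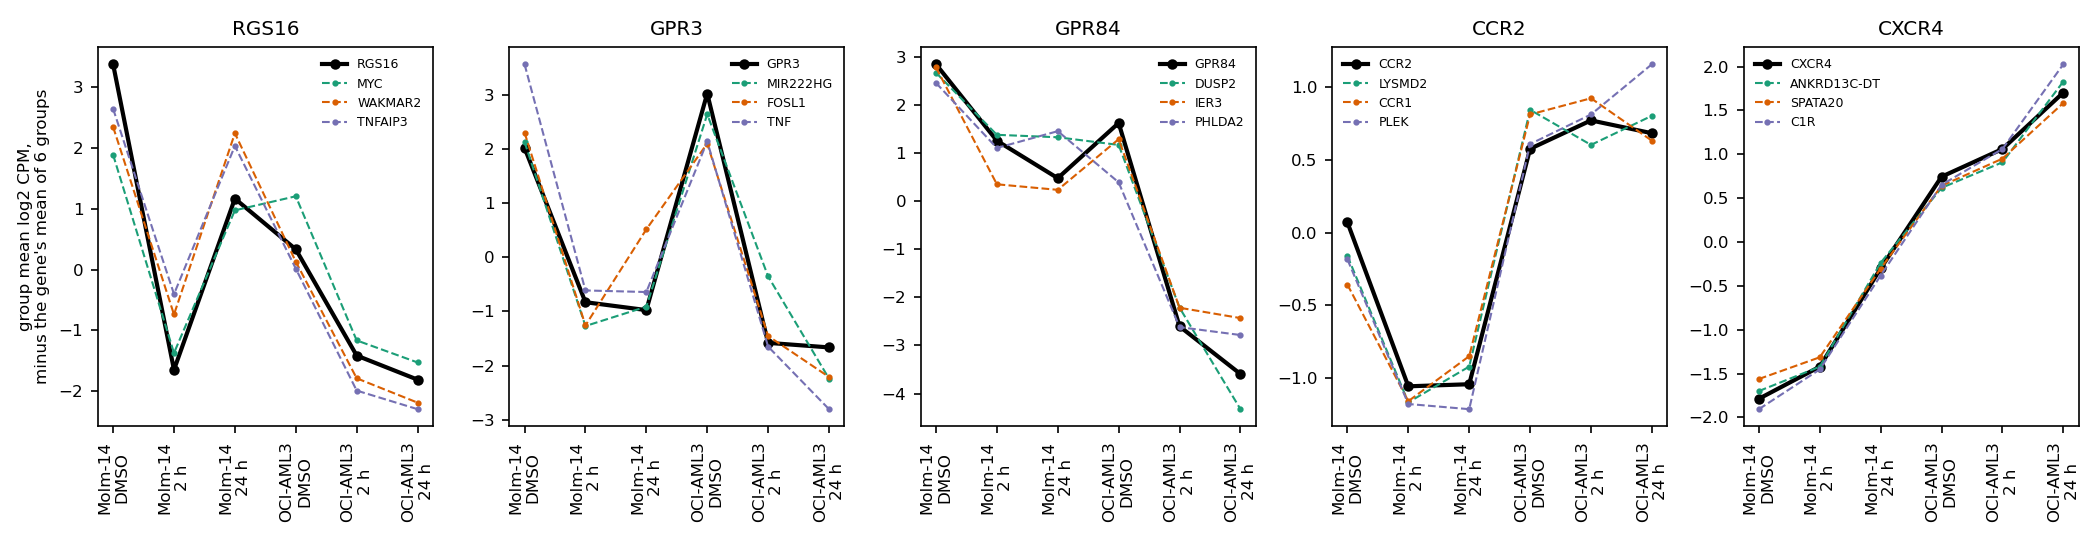
Group-mean log2 CPM minus each gene's mean of the 6 groups, for each of the 5 genes (black) and its 3 nearest genes (dashed), with a separate axis per panel. The RGS16 panel shows the dip at 2 h and partial return at 24 h in Molm-14 (MYC, WAKMAR2 and TNFAIP3 also dip and return, WAKMAR2 from 0.677 to 6.01 CPM against 6.46 in DMSO), and the CXCR4 panel shows lines that nearly coincide (distances 0.11 to 0.15).

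No other RGS gene with values lay below DMSO in all 4 comparisons, as RGS16 did. RGS16 was picked on that response, so nothing is read from this. Of 20 family members listed, 11 had values, 10 of them besides RGS16. Among these 10, 1 rose and 2 fell in Molm-14 at 2 h, where 4.30% of all genes rose and 2.98% fell. At 24 h 3 rose and 0 fell (11.4% and 6.57% of all genes). In OCI-AML3 1 rose and 1 fell at 2 h (3.23% and 3.35%), and 2 rose and 0 fell at 24 h (18.4% and 17.1%). The median log2 change of the 10 was 0.08, 0.68, 0.24 and 0.42 in this order, against 0.00, 0.00, 0.02 and 0.01 over all genes.

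RGS18, an RGS protein of blood cells, fell in Molm-14 at 2 h by 1.69 on the log2 scale (SE 0.17, limma, adjusted p = 1.2e-08), from 2.40 to 0.671 CPM, and stood at 2.58 CPM at 24 h. In OCI-AML3 it was far more abundant, at 86.7, 112 and 158 CPM in DMSO, 2 h and 24 h. RGS1, which restrains chemokine receptors, fell in Molm-14 at 2 h (-1.25 ± 0.22, adjusted p = 1.3e-05) and rose above DMSO at 24 h (1.71 ± 0.22, adjusted p = 3.1e-08), with levels of 2.71, 1.10 and 9.06 CPM. In OCI-AML3 it was nearly silent, with 1 read in DMSO, 0 at 2 h and 9 at 24 h, a ratio of 13.2 at 24 h with an interval of 1.83 to 580. That rise of RGS1 is counted as called (1.21 ± 0.24, adjusted p = 2.7e-05), though its fitted value depends on the authors' offset. RGS19, which acts on Gi subunits, fell in OCI-AML3 at 2 h (-1.09 ± 0.06, adjusted p = 2.4e-15), from 117 to 54.7 CPM. Below the size of a call, it was also lower there at 24 h (-0.51, adjusted p = 5.3e-08) and in Molm-14 at 2 h (-0.49, adjusted p = 7.1e-08). In Molm-14 at 24 h it stood at 0.11 against DMSO, 0.60 above its 2 h level.

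Besides those of RGS1, the rises were of RGS12 in Molm-14 at 2 h (1.08 ± 0.06, adjusted p = 1.8e-16), RGS3 in Molm-14 at 24 h (1.62 ± 0.18, adjusted p = 1.9e-09) and RGS17. RGS17 rose in Molm-14 at 24 h (1.06 ± 0.20, adjusted p = 1.7e-05) and in OCI-AML3 at 2 h (1.36 ± 0.20, adjusted p = 6.3e-07) and 24 h (1.75 ± 0.21, adjusted p = 9.9e-09), from 1.17 CPM to 3.13 and 4.08 CPM. RGS10, among the more abundant of the family in Molm-14 at 45.7 CPM in DMSO, was not called in any comparison with DMSO (largest difference 0.22). RGS2, RGS5 and RGS14 were not called either, but differed more. RGS14 stood at 0.98 in Molm-14 at 24 h (limma, adjusted p = 1.3e-14) and at -0.85 in OCI-AML3 at 2 h (adjusted p = 1.3e-12). RGS2 reached 0.74 in OCI-AML3 at 2 h (adjusted p = 2.2e-05) and RGS5 0.40 in Molm-14 at 2 h (adjusted p = 0.029). When 1 CPM was added before taking logs the OCI-AML3 calls fell to 1 at 2 h and 1 at 24 h. The Molm-14 calls fell to 2 at 2 h (1 higher and 1 lower) and 2 at 24 h. With library totals 4 rose at 24 h in OCI-AML3.

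**Figure D4:**
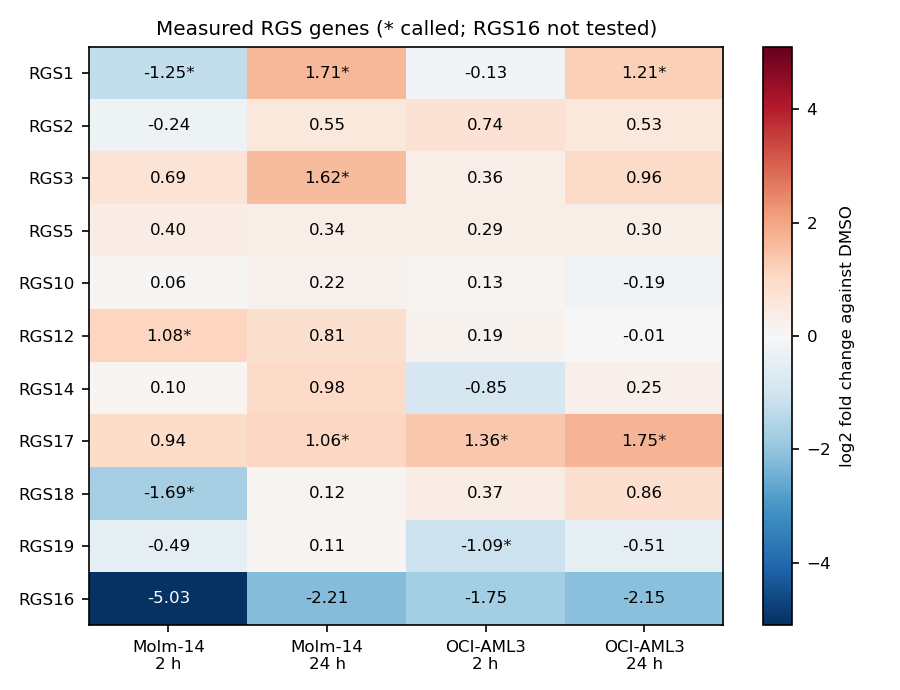
Log2 fold change against DMSO of the 11 RGS genes with values, in both lines at both times; a star marks a call, and RGS16 carries none because it was not tested. RGS16, picked on its response in these libraries, is the only row that is below -1 in all 4 columns. RGS17 is above 0.9 in all of them.

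Besides CCR2 and CXCR4, 4 of the 23 listed chemokine receptors had values. CX3CR1, the receptor for fractalkine on monocytes, rose in Molm-14 at 2 h (1.94 ± 0.06, limma, adjusted p = 2.7e-22) and 24 h (1.44 ± 0.06, adjusted p = 9.3e-20) and in OCI-AML3 at 24 h (1.19 ± 0.06, adjusted p = 3.1e-17). In Molm-14 it went from 24.4 CPM in DMSO to 93.9 and 66.6 CPM. CXCR2, a receptor for CXCL8, rose in OCI-AML3 at 24 h (1.46 ± 0.16, adjusted p = 1.2e-09), from 6.52 to 18.0 CPM. CCR10 rose in both lines at 24 h (1.01 ± 0.26, adjusted p = 0.00085, and 1.87 ± 0.28, adjusted p = 4.9e-07), from 3.39 to 6.89 CPM in Molm-14 and from 0.227 to 1.02 CPM in OCI-AML3. The Molm-14 count at 24 h was 1 of the 4, not 2, when 1 CPM was added before taking logs and without DMSO replicate 4, 24 h replicate 1 or 24 h replicate 2. At 2 h 2 of the 4, not 1, were called without DMSO replicate 1 or 3 or 2 h replicate 2 or 3.

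Thus 1 of these 4 rose in Molm-14 at 2 h and 2 at 24 h, 0 in OCI-AML3 at 2 h and 3 at 24 h, and 0 fell. Of all genes 4.30% rose at 2 h and 11.4% at 24 h in Molm-14, and 3.23% and 18.4% in OCI-AML3. The share that fell was 2.98% and 6.57% in Molm-14 and 3.35% and 17.1% in OCI-AML3. In OCI-AML3 at 2 h, where limma called 0, CX3CR1, CXCR2 and CCR10 had an adjusted p below 0.05 at log2 changes of 0.62, 0.85 and 0.91, as did CCR1 at 0.11. There 1 was called with voom weights and without DMSO replicate 2, DMSO replicate 3 or 2 h replicate 1. CCR1, which binds inflammatory chemokines, stood at -0.80 ± 0.05 at 2 h in Molm-14 and was not called in any comparison with DMSO. Of 6 listed ligands of CCR2 and CXCR4, only MIF, a cytokine that also binds CXCR4, had values. It fell in OCI-AML3 at 24 h (-2.40 ± 0.08, adjusted p = 9.1e-20), from 584 to 110 CPM, and stood at -0.56 in Molm-14, not called.

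Among relatives of GPR3 and GPR84 and other orphan receptors, 11 of 25 further genes had values. At 2 h 1 rose and 1 fell in Molm-14 (4.30% and 2.98% of all genes), and 3 rose and 1 fell in OCI-AML3 (3.23% and 3.35%). At 24 h 3 rose and 0 fell in Molm-14 (11.4% and 6.57%), and 4 rose and 1 fell in OCI-AML3 (18.4% and 17.1%). GPR65, a proton-sensing Gs-coupled receptor, fell in Molm-14 at 2 h (-1.13 ± 0.10, adjusted p = 2.1e-11), from 14.2 to 6.50 CPM. GPR183, the oxysterol receptor, rose in Molm-14 at 24 h (1.67 ± 0.10, adjusted p = 2.8e-15) and in OCI-AML3 at 2 h (1.18 ± 0.10, adjusted p = 2.8e-11) and 24 h (1.88 ± 0.11, adjusted p = 5.0e-16). GPR18 rose in OCI-AML3 at 24 h (2.32 ± 0.11, adjusted p = 3.4e-18), and GPR85 rose there at 2 h (1.69 ± 0.17, adjusted p = 3.9e-10) and 24 h (1.94 ± 0.18, adjusted p = 2.7e-11) and in Molm-14 at 24 h (1.09 ± 0.17, adjusted p = 7.6e-07). GPR20 rose in all 4 comparisons, from 10 reads in DMSO in Molm-14 (16.4-fold at 2 h, interval 8.74 to 34.9) and 2 reads in OCI-AML3 (6.51-fold, 1.45 to 59.8). The fall in OCI-AML3 at 24 h was of GPR25 (-1.58). GPR65 was also lower in OCI-AML3 at 2 h, below the size of a call (-0.39 ± 0.10, adjusted p = 0.00091). With 1 CPM added before taking logs, 1 and not 4 were called in OCI-AML3 at 2 h.

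The list of receptors for chemoattractants, lipids, nucleotides and amines had 33 of 55 genes with values. In Molm-14 2 rose and 3 fell at 2 h, where 4.30% and 2.98% of all genes did, and 10 rose and 2 fell at 24 h (11.4% and 6.57%). In OCI-AML3 3 rose and 3 fell at 2 h (3.23% and 3.35%), and 9 rose and 3 fell at 24 h (18.4% and 17.1%). LPAR2, a receptor for lysophosphatidic acid, rose at 24 h in Molm-14 (1.60 ± 0.07, adjusted p = 6.4e-18) and OCI-AML3 (2.49 ± 0.08, adjusted p = 3.1e-22). PTGER4, a Gs-coupled receptor for prostaglandin E, rose at 24 h in Molm-14 (1.62 ± 0.06, adjusted p = 2.5e-20) and at both times in OCI-AML3 (1.19 and 1.31). The rises at 2 h were of LPAR5 (2.26) and ADORA1 in Molm-14 and of LPAR5, S1PR5 and PTGER4 in OCI-AML3. ADORA1 went from 5 reads to 36 (6.73-fold, interval 2.63 to 22.0). In OCI-AML3 LPAR5 went from 3 reads to 29 (10.5-fold, 3.25 to 53.8) and S1PR5 from 2 to 14 (7.59-fold, 1.74 to 68.8), so their fitted changes depend on the authors' offset. The adenosine receptor gene ADORA2A fell at 2 h in both lines (-1.45 and -1.61) and at 24 h in OCI-AML3 (-1.22). P2RY11 and SUCNR1 fell in Molm-14 at 2 h (-1.22 and -1.30), and the histamine receptor gene HRH1 fell at both times in OCI-AML3 (-1.18 and -1.63) and at 24 h in Molm-14 (-1.49). P2RY1 fell in OCI-AML3 at 24 h (-1.63). With 1 CPM added before taking logs, 3 and not 5 were called in Molm-14 at 2 h. HRH2, the Gs-coupled histamine receptor, fell in OCI-AML3 at 2 h (-1.40 ± 0.05, adjusted p = 6.8e-20), and S1PR3, a receptor for sphingosine phosphate, fell in Molm-14 at 24 h (-1.73 ± 0.06, adjusted p = 6.6e-22).

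Adhesion receptors, with 13 of 23 genes measured, had 0 called falls by limma in any of the 4 comparisons, where 2.98% to 17.1% of all genes fell. ADGRE2 in OCI-AML3 at 24 h came close (-0.96 ± 0.05, adjusted p = 1.8e-17, from 61.4 to 31.6 CPM). In Molm-14 4 rose at 2 h and 5 at 24 h (4.30% and 11.4% of all genes), and in OCI-AML3 2 and 4 did (3.23% and 18.4%). ADGRE5, the leukocyte surface protein CD97, rose in Molm-14 from 95.9 CPM to 492 CPM at 2 h (2.36 ± 0.05, adjusted p = 9.0e-27) and 530.0 CPM at 24 h (2.47 ± 0.05, adjusted p = 1.4e-27). ADGRD1 rose at both times in both lines, by 2.32, 3.16, 1.78 and 3.95 in the order Molm-14 2 h and 24 h and OCI-AML3 2 h and 24 h. ADGRA2 rose in Molm-14 at both times (1.57 and 1.93) and in OCI-AML3 at 24 h (1.73), and ADGRG5 rose in OCI-AML3 at both (1.89 and 3.14). The remaining calls were CELSR2 in Molm-14 at both times (2.00 and 2.23), ADGRL3 there at 24 h (1.26) and CELSR3 in OCI-AML3 at 24 h (1.25). With 1 CPM added before taking logs, 1 and not 2 were called in OCI-AML3 at 2 h.

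**Figure D5:**
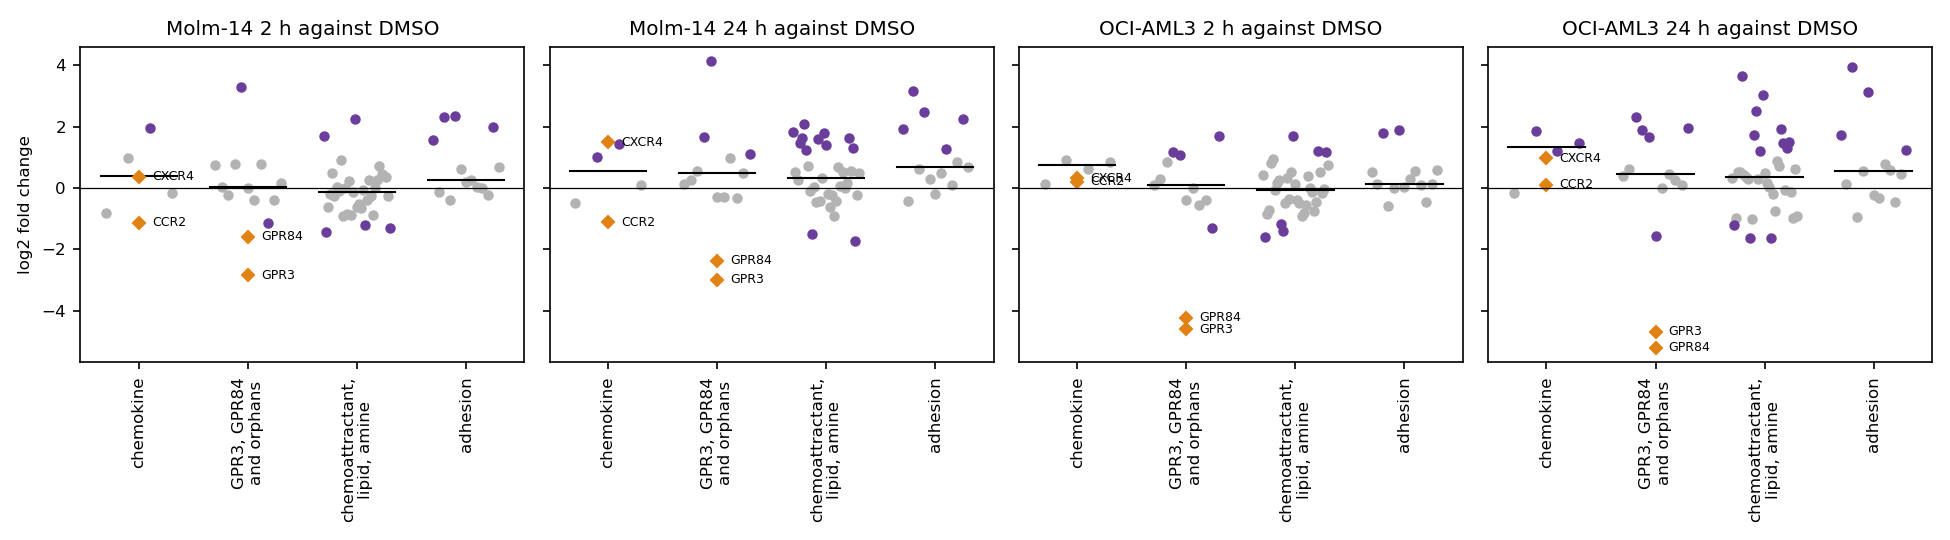
Log2 fold change against DMSO of the receptors in 4 lists, one panel per comparison; purple points were called, grey points were not, black lines are medians without the chosen genes, and orange diamonds are CCR2, CXCR4, GPR3 and GPR84. GPR3 and GPR84 lie below every other receptor drawn in OCI-AML3 at 2 h and 24 h. They were picked on their response in these libraries, so nothing is read from this rank.

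Downstream of the receptors, 21 of 28 G-protein subunit genes had values. At 2 h limma and voom called 0 in Molm-14, where 17 had an unadjusted p below 0.05 and limma called 7.29% of all genes. At that time 1, GNG2, fell in OCI-AML3 (-1.07 ± 0.06, adjusted p = 7.8e-15), where 3.35% of all genes fell. There 2 were called with voom weights and without DMSO replicate 2 or 3 or 2 h replicate 2 or 4. At 24 h 5 rose in Molm-14 (11.4% of all genes), and 3 rose and 2 fell in OCI-AML3 (18.4% and 17.1%). GNG7, a gamma subunit, rose at 24 h in Molm-14 (1.99 ± 0.11, adjusted p = 4.9e-16) and OCI-AML3 (3.79 ± 0.12, adjusted p = 1.3e-22), from 1.98 to 28.5 CPM in OCI-AML3. GNA15 (1.66 ± 0.06, adjusted p = 1.3e-20) and GNA11 (1.27 ± 0.07, adjusted p = 5.2e-17), both alpha subunits of the Gq class, rose in Molm-14 at 24 h, with GNB5 (1.00 ± 0.05, adjusted p = 2.5e-18), the beta subunit that pairs with some RGS proteins. GNG4 also rose in Molm-14 (1.30), GNAL and GNG11 rose in OCI-AML3 (1.33 and 1.26), and GNB3 and GNG10 fell there (-1.58 and -1.14). Of 7 receptor kinases and arrestins, limma and voom called 0 at 2 h in either line and 0 in Molm-14 at 24 h, where 5, 5 and 6 of them had an unadjusted p below 0.05 (Molm-14 2 h, OCI-AML3 2 h, Molm-14 24 h). In that order limma called 7.29%, 6.58% and 17.9% of all genes. GRK3 rose in OCI-AML3 at 24 h (1.15 ± 0.07, adjusted p = 4.8e-15) and GRK6, a kinase that phosphorylates CXCR4, fell there (-1.30 ± 0.06, adjusted p = 1.4e-18), where 18.4% of all genes rose and 17.1% fell.

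In the cyclic AMP pathway, which lies downstream of GPR3, 26 of 32 genes had values. In Molm-14 1 rose (ADCY4, 1.02) and 1 fell (the phosphodiesterase gene PDE4D, -1.88) at 2 h, where 4.30% of all genes rose and 2.98% fell. There 6 rose and 0 fell at 24 h (11.4% and 6.57% of all genes). The count at 2 h was 1 when 1 CPM was added before taking logs and without DMSO replicate 1 or 3 or 2 h replicate 1 or 2. In OCI-AML3 limma and voom called 0 at 2 h, where 14 had an unadjusted p below 0.05 and limma called 6.58% of all genes. At 24 h 9 rose and 1 fell there (18.4% and 17.1% of all genes). The adenylate cyclase gene ADCY7 rose at 24 h in Molm-14 (1.24 ± 0.05, adjusted p = 9.7e-19) and OCI-AML3 (2.03 ± 0.06, adjusted p = 9.5e-24), while ADCY3, another cyclase gene, fell in OCI-AML3 (-2.95 ± 0.08, adjusted p = 2.6e-24), from 66.0 to 8.56 CPM. PRKAR2B, a regulatory subunit of protein kinase A, rose in Molm-14 at 24 h (2.04 ± 0.06, adjusted p = 2.6e-22), and the phosphodiesterase gene PDE7A rose in OCI-AML3 at 24 h (1.08 ± 0.04, adjusted p = 4.1e-22).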

How the data were processed

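The submitters' processing notes name, for the authors' own steps, limma 3.38.3 and edgeR 3.24.3, RSEM 1.3.3, the aligner STAR 2.7.8a and Trimmomatic 0.36, and the build hg38 (GRCh38). Neither their order and settings, nor strand, nor any low-expression filter is stated. The deposited values are log2 CPM for 13033 genes in 23 libraries, with a shared lowest value of -3.26. CPM are given with that offset of 0.105 CPM subtracted. Depth was recovered from the spacing of low values, where 75.2% to 83.1% of a library's values under 20 reads were whole to a tolerance of 0.05. The main test therefore used the log2 values, and recovered reads served only for sums, intervals and voom.

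One limma 3.58.1 fit in R 4.3.3 held 6 group means over all libraries (trend and robust moderation), and p-values were adjusted by Benjamini-Hochberg over 13033 genes. The design had foreseen adjusted p-values for the chosen genes from 2 to 24 h, between lines in DMSO and between lines in response. They are given without p because the genes were picked on these libraries' response. The fit was tested on simulated data. The genes and lists were chosen with earlier results of these data known. Genes of a list were named by a rule: up to 4 called genes per list reaching 5 CPM, by smallest adjusted p, and every called RGS gene. CCR1, the RGS genes without a call and the called genes outside that rule were named after their values were seen. A called gene is counted but not reported here. Exon lengths and positions are from GENCODE 29. Intervals on read ratios and counts cover counting error only. Alternatives were a pseudocount of 1 CPM, a filter of 1 CPM in 4 libraries, 2 scalings, plain moderation, fits of the compared groups alone, a replicate block, voom and leaving out each library.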

Additional observations from a re-analysis of the deposited data

Results flagged for a closer look

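GPR3 in OCI-AML3 at 2 h had a library apart from the others: replicate 4 stood at log2 CPM -1.41 and the other 3 between -2.27 and -2.21. These values rest on about 5 reads against 2 in each of the others. Without replicate 4 the difference from DMSO was -4.81, against -4.61 with it. Of 25 groups of 4 libraries checked for the chosen genes, 1 stood out, and chance flags about 1 in 20 where values follow a normal distribution. Values resting on a few whole reads do not, so that rate may not hold for this group.

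CCR2 stood on opposite sides of DMSO in the lines: every treated Molm-14 library lay below its DMSO mean and every treated OCI-AML3 library above. In OCI-AML3 the differences were small (0.20 ± 0.07 and 0.11 ± 0.07), and the 24 h libraries overlapped with DMSO, so a rise there is not shown. The difference in response was 1.32 at 2 h and 1.22 at 24 h on the log2 scale, and it was not tested because CCR2 was picked on its response.

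Of the RGS genes not picked, 2 responded differently in the lines at 2 h with a difference of at least 1 and an adjusted p below 0.05 in limma's test of the difference. RGS2, RGS12, RGS14 and RGS19 had an adjusted p below 0.05 at smaller differences (0.99, -0.90, -0.96 and -0.60). RGS18 differed by 2.06 (adjusted p = 4.1e-07), lower in 4 of 4 treated libraries in Molm-14. RGS1 differed by 1.11 (adjusted p = 0.0048), but OCI-AML3 held 1 read in DMSO and 0 at 2 h, so this fitted value depends on the authors' offset.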

How the results depend on the processing

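Values of the chosen genes were compared across the alternatives other than left-out libraries. From 2 to 24 h and between lines in DMSO only the call was compared, and 2 fell below and 1 passed its limits. In the other contrasts 37 moved by at least the spread between libraries. CXCR4 in OCI-AML3 at 24 h, which passed the size of a call, was among these. The other 320 met neither mark, but GPR84 from 2 to 24 h in OCI-AML3 went from -0.99 to -0.41 with 1 CPM added. The sign changed in 1 fit, for CCR2 from 2 to 24 h in OCI-AML3 (0.01 with library totals, -0.09 as reported), and in 5 fits without a library, all for differences of CCR2 or GPR3 from 2 to 24 h that met no call. Adding 1 CPM before taking logs shrank the differences of low genes. In Molm-14 at 2 h RGS16, GPR3 and GPR84 stood at -4.78, -1.56 and -1.52, and at 24 h GPR3 and GPR84 at -1.60 and -2.24. In OCI-AML3 they stood at -1.60, -2.58 and -3.28 at 2 h and -1.93, -2.61 and -3.69 at 24 h. The differences between lines in response became 3.18, -1.03 and -1.75 at 2 h and 0.25, -1.01 and -1.45 at 24 h, and GPR3 between the lines in DMSO 0.83. That setting called 562 genes in OCI-AML3 at 2 h (858 as reported) and 470 in the difference at 2 h (735). It called 3 chemoattractant, lipid, nucleotide and amine receptors (5) and 1 cyclic AMP gene (2) in Molm-14 at 2 h, 1 chemokine receptor (2) at 24 h, 1 RGS gene, 1 orphan receptor and 1 adhesion receptor in OCI-AML3 at 2 h (2, 4 and 2), and 1 RGS gene (2) at 24 h.

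With library totals, RGS16, GPR84, CCR2 and CXCR4 stood at -2.11, -2.27, -1.01 and 1.58 in Molm-14 at 24 h, RGS16 and CXCR4 at -1.68 and 0.39 in OCI-AML3 at 2 h, and RGS16, CCR2 and CXCR4 at -1.98, 0.28 and 1.13 at 24 h, with 4 RGS genes called (2). The CXCR4 difference between lines at 24 h became -0.45. Median-of-ratios scaling gave -2.07, 0.18 and 1.03 for RGS16, CCR2 and CXCR4 in OCI-AML3 at 24 h, and 0.94 for GPR3 between lines in DMSO. With voom, GPR3 stood at -3.31 in Molm-14 at 24 h and -5.18 and -5.27 in OCI-AML3, GPR84 at -5.49 in OCI-AML3 at 24 h and -1.13 from 2 to 24 h. The differences between lines were -2.08 and -1.97 for GPR3 and -3.11 for GPR84 at 24 h, and 2 G-protein subunits (1) and 1 chemokine receptor (0) were called in OCI-AML3 at 2 h.

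Leaving out 1 library at a time gave 0.96 to 1.07 for GPR3 between lines in DMSO, -1.19 to -0.81 for GPR84 from 2 to 24 h in OCI-AML3 and -3.05 to -2.74 for its difference between lines at 24 h. List counts ranged from 1 to 2 for the cyclic AMP pathway and chemokine receptors in Molm-14 at 2 h, 1 to 2 for chemokine receptors at 24 h, and in OCI-AML3 at 2 h 0 to 1 for chemokine receptors and 1 to 2 for G-protein subunits. Other list counts varied as well. Among them were RGS genes (2 to 4) and G-protein subunits (4 to 6) in Molm-14 at 24 h. In OCI-AML3 the orphan receptors ranged from 3 to 4 at 2 h and the chemoattractant, lipid, nucleotide and amine receptors from 12 to 15 at 24 h. Libraries of a line with the same replicate number did not deviate together (median r 0.011 over 22 pairs, against -0.0039 over 66 pairs of different number), so the numbers do not pair them. A replicate block called 951 genes in Molm-14 at 2 h (950) and 4614 in OCI-AML3 at 24 h (4620). GPR3 after drug rests on 7 to 25 reads per group, which limits the precision of its folds.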
